A study of Macaca fascicularis with 20 samples.

Results

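This comparison sets the outer subventricular zone (OSVZ) of the fetal macaque visual cortex against the cortical plate (CP) at the level of single microRNA arms. Its members are the libraries labelled OSVZ or CP in the 2 replicate sets whose columns could be tied to a label, which makes 10 libraries out of 14 so tied and 20 labelled in all. Regions were cut from the neocortex of the crab-eating macaque with a UV laser microscope, and small RNA was sequenced on the SOLiD platform after size selection. The OSVZ had 6 libraries: in each set, 1 from the inner, apical sublayer of area 17 (OSVZ_17int), 1 from its outer, basal sublayer below the outer fiber layer (OSVZ_17ext) and 1 from area 18 (OSVZ_18). The CP had 4 libraries, 1 from area 17 (CP_17) and 1 from area 18 (CP_18) in each set. Set 1 was taken at embryonic day 80 and set 2 at embryonic day 79, and no treatment or genotype is named for any of them. The sources used here give neither the number of fetuses nor which regions share one. The p-values therefore measure the spread between these libraries, which may be technical in part.

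A microRNA precursor is a hairpin whose 2 sides give the 5p and the 3p arm, and usually 1 of them is loaded into Argonaute and represses messenger RNAs that match its seed. The OSVZ is the germinal layer, thick in primates, where basal radial glia and intermediate progenitors divide, while the CP is where newborn neurons settle and extend dendrites. As background, miR-9, miR-92b and the miR-17 clusters are known from cortical progenitors, and miR-124, miR-128, miR-132, miR-137 and miR-138 from neurons.

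Libraries held between 3603478 and 9517217 counts in the OSVZ and between 5924092 and 7606636 in the CP. Of the 1656 arms in both tables, 1139 passed the filter on low counts. Levels below are in CPM, counts over library size, scaled by the trimmed mean of M-values (TMM), and differences are OSVZ minus CP on the log2 scale with their standard error (SE). Calls are arms whose adjusted p fell under 0.05 in edgeR's quasi-likelihood test. In bulk pieces of tissue, fewer cells of a type and less RNA per cell cannot be told apart. The most abundant arm, miR-125b-5p, took 29.1% to 38.9% of the counts in the OSVZ and 40.2% to 49.3% in the CP, and its difference of -0.54 ± 0.41 did not pass (adjusted p = 0.654). A few arms differed far more between the sets than between the layers. The arm miR-34a-5p lay between 11158 and 94425 CPM in set 1 and between 62.2 and 122 CPM in set 2, and miR-130b-3p between 40260 and 415690 CPM in set 1 and between 2069 and 3174 CPM in set 2. Neither was called between the layers (differences 0.62 ± 0.39 and 0.74 ± 0.45).

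The layers differed in 72 arms, of which 24 were higher and 48 lower in the OSVZ. This was 6.32% of the arms tested, 2.11% higher and 4.21% lower, and 177 arms had an unadjusted p under 0.05. Of the 358 arms averaging at least 10 CPM, 68 were called. The shares over all arms, given below as background, are thus low for lists of abundant arms. Set 1 and set 2 gave each of the 72 the same sign. Their selection favours this, since the fit takes both sets together. Of the higher arms, 14 differed by at least 4-fold, and so did 25 of the lower arms. In 17 of the 24 higher arms every OSVZ library lay above every CP library, and in 40 of the 48 lower arms every OSVZ library lay below every CP library. Over all tested arms, 31 (2.72%) lay wholly above and 65 (5.71%) wholly below, 8.43% together. The higher arms together held 28186 to 45944 CPM in the OSVZ libraries and 3296 to 6920 CPM in the CP libraries. The lower arms together held 17280 to 31333 CPM in the OSVZ and 67939 to 97540 CPM in the CP.

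The split into higher and lower arms moved with the scaling. DESeq2 size factors gave 35 higher and 44 lower arms, and library totals 38 higher and 34 lower. The median difference of all tested arms was -0.20 with TMM, -0.045 with size factors and 0.035 with totals. Under 21 alternatives to the processing, 31 of the 72 arms were called in every one, 12 of them higher and 19 lower, and no arm was reversed. Without CP_17 replicate 1 the calls were 44 (26 lower), without OSVZ_18 replicate 2 they were 44 (22 lower), and without OSVZ_18 replicate 1 there were 31 lower. The plot of all tested arms shows the called arms from low to high levels.

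**Figure D1:**
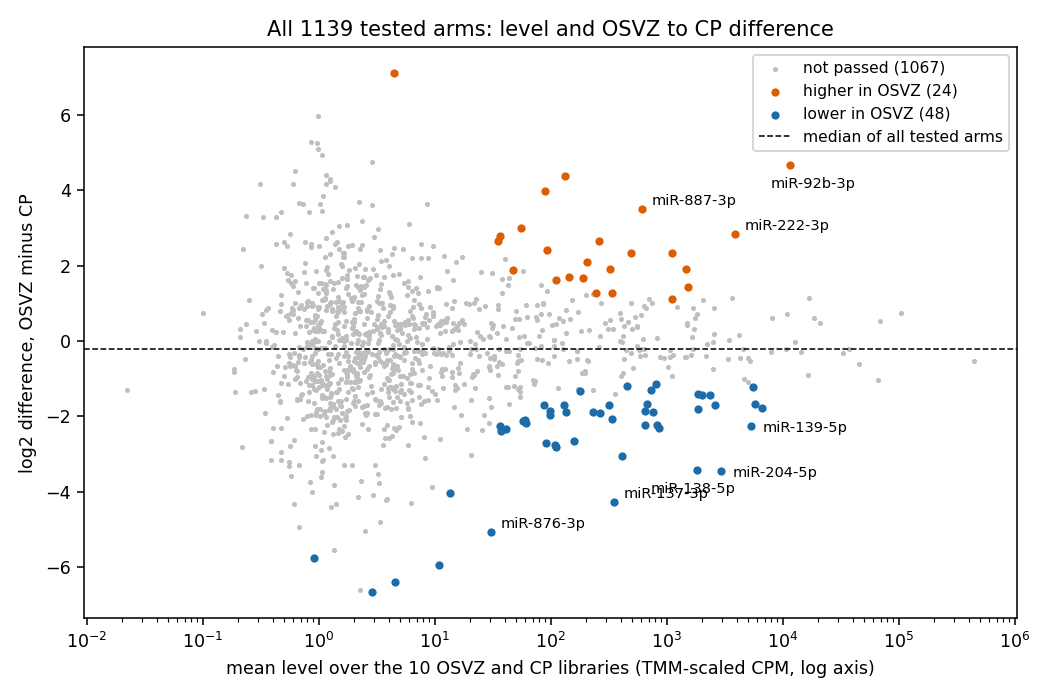
Each point is 1 of the 1139 tested arms, with its mean level over the 10 OSVZ and CP libraries (TMM-scaled CPM, log axis) on the horizontal axis and its log2 difference, OSVZ minus CP, on the vertical axis. The 24 arms called higher in the OSVZ are orange, the 48 called lower are blue, the other 1067 are grey, and the dashed line is the median of all arms at -0.20.

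Among the arms higher in the OSVZ, both arms of miR-92b led those with a mean of at least 10 CPM. This microRNA is known to limit intermediate progenitors in the mouse cortex. The 6 OSVZ libraries held 13464 CPM of miR-92b-3p at the lowest, 19475 at the median and 25289 at the highest, while CP_17 held 1082 and 961 CPM and CP_18 held 583 and 518 CPM. Every OSVZ library stood far above every CP library, and the CP of area 18 was the lowest. The difference was 4.68 ± 0.41 (adjusted p = 4.51e-10). The other arm, miR-92b-5p, ran from 152 CPM over a median of 214 to 251 CPM in the OSVZ, and stood at 15.9 and 21.8 CPM in CP_17 and at 6.42 and 4.7 CPM in CP_18. Both arms of this hairpin thus showed the same order of libraries by layer, with a difference of 4.37 ± 0.46 for the 5p arm (adjusted p = 1.34e-08).

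Both arms of miR-574 were also higher in the OSVZ. For miR-574-3p the OSVZ libraries ran from 1226 CPM over a median of 1578 to 2182 CPM, against 373 and 526 CPM in CP_17 and 203 and 300 CPM in CP_18, a difference of 2.34 ± 0.38 (adjusted p = 4.69e-05). For miR-574-5p they ran from 59.7 over 137 to 218 CPM, against 8.75 and 15.5 CPM in CP_17 and 9.74 and 0.635 CPM in CP_18. The groups did not overlap for either arm. The 5p difference of 3.99 ± 0.63 (adjusted p = 2.84e-05) was 5.87 without CP_18 replicate 1 and 3.37 without CP_18 replicate 2, the library with the very low value.

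The third hairpin with both arms higher was miR-423. Its 5p arm stood between 583 and 931 CPM in the OSVZ, with a median of 673, and at 205, 165, 104 and 106 CPM in the CP (CP_17 first, then CP_18). This arm was higher by 2.34 ± 0.37 (adjusted p = 2.57e-05). Its 3p arm was closer between the layers, from 1106 to 1914 CPM in the OSVZ and from 392 to 1057 CPM in the CP, a difference of 1.12 ± 0.35 (adjusted p = 0.0461). The call of the 3p arm was lost without any 1 of CP_17 replicate 1, CP_17 replicate 2, CP_18 replicate 1, CP_18 replicate 2, OSVZ_17ext replicate 1, OSVZ_17ext replicate 2, OSVZ_17int replicate 1, OSVZ_18 replicate 1 and OSVZ_18 replicate 2, at adjusted p from 0.0557 to 0.261 and differences from 1.03 to 1.34.

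Among arms called alone from their hairpin, miR-887-3p ran from 539 CPM over a median of 1046 to 1213 CPM in the OSVZ, against 84.2 and 93.7 CPM in CP_17 and 85.9 and 88.3 CPM in CP_18. The 4 CP libraries were nearly level, and all lay below the OSVZ, by 3.5 ± 0.38 (adjusted p = 2.01e-08). The arm miR-222-3p, an oncogenic microRNA that represses the cell cycle inhibitor CDKN1B, ran from 1496 over 5235 to 11064 CPM in the OSVZ. The CP held 1582 and 409 CPM in area 17 and 787 and 484 CPM in area 18, so that 1 CP library lay inside the OSVZ range. The difference was 2.85 ± 0.43 (adjusted p = 1.31e-05). Its neighbour in the genome, miR-221-3p, which shares the seed, ran from 12510 over 20136 to 34249 CPM in the OSVZ and stood at 17425, 7620, 7381 and 6596 CPM in the CP. The groups overlapped through CP_17 replicate 1, and the difference of 1.13 ± 0.38 did not pass (adjusted p = 0.0735). With DESeq2 size factors it was 1.29 (adjusted p = 0.0303), and with library totals 1.38 (adjusted p = 0.00248). With TMM it was also called in the 10 OSVZ and CP libraries alone (1.29, adjusted p = 0.000401). The same held among arms of at least 10 CPM (1.24, adjusted p = 0.0145).

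Further arms higher in the OSVZ were less abundant. The arm miR-3613-5p ran from 190 over 329 to 684 CPM against 35.7 to 83.8 CPM in the CP, without overlap, a difference of 2.66 ± 0.44 (adjusted p = 5.15e-05). For miR-193a-5p the OSVZ held 30.9 to 162 CPM and the CP 7.38 to 14.8 CPM, again without overlap, a difference of 3.0 ± 0.56 (adjusted p = 0.000296). The arm miR-455-3p, encoded in an intron of the collagen gene COL27A1, had a median of 518 CPM in the OSVZ and 71.5 to 156 CPM in the CP. Here OSVZ_17int replicate 1, at 152 CPM, fell within the CP range, and the difference was 1.92 ± 0.40 (adjusted p = 0.00133). The plot of levels by library shows these arms with the others of the largest differences.

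**Figure D2:**
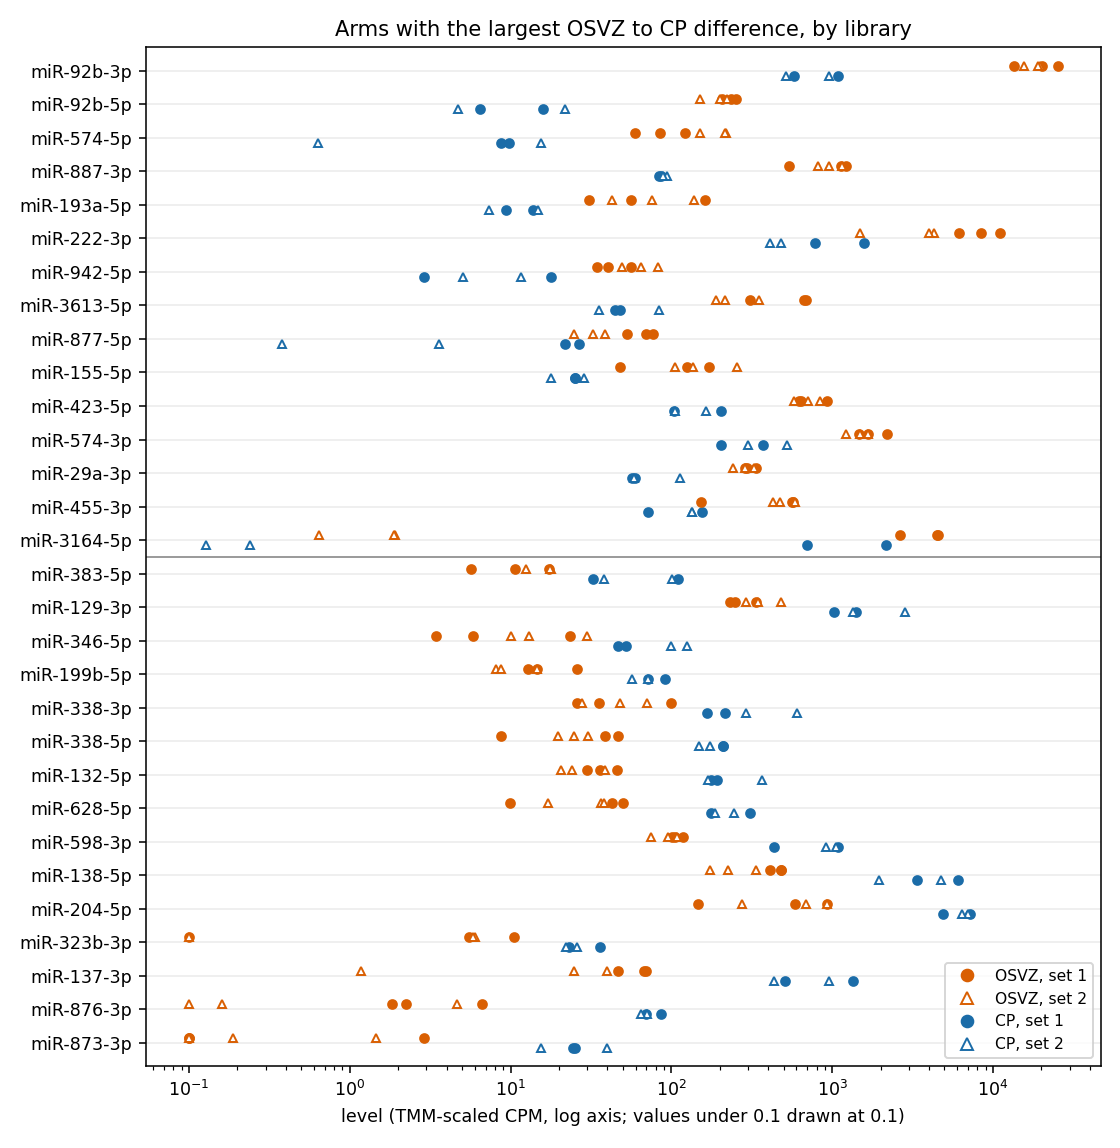
Levels (TMM-scaled CPM, log axis) of the 15 higher and 15 lower arms with the largest OSVZ to CP differences are drawn for each library, with OSVZ in orange, CP in blue, set 1 as filled circles and set 2 as open triangles. Above the grey line the OSVZ points lie to the right of the CP points, as for miR-92b-3p (OSVZ from 13464 CPM, CP up to 1082 CPM), except that they overlap in miR-222-3p, miR-455-3p, miR-877-5p and miR-3164-5p, and miR-3164-5p splits by set before it splits by layer.

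Of the 15 higher arms in the plot, miR-942-5p, miR-877-5p and miR-3164-5p lost their call when single libraries were left out. For miR-942-5p, 34.4 to 83.2 CPM in the OSVZ against 2.88 to 18 CPM in the CP, the difference of 2.80 ± 0.63 was 2.56 without CP_17 replicate 2 (adjusted p = 0.0608). For miR-877-5p the OSVZ held 24.8 to 77.1 CPM, and the CP held 21.9 and 26.8 CPM in set 1 but 3.57 and 0.381 CPM in set 2. Its difference of 2.64 ± 0.73 rose to 4.20 without CP_18 replicate 1, and its call ended without CP_17 replicate 1 (2.87, adjusted p = 0.05), CP_17 replicate 2 (2.48, adjusted p = 0.139) or CP_18 replicate 2 (2.01, adjusted p = 0.163), without the replicate block (1.93, adjusted p = 0.405), and on counts summed per set and zone (2.65, adjusted p = 0.0749). The arm miR-3164-5p stood at 2638 to 4549 CPM in the OSVZ and 694 and 2157 CPM in the CP of set 1, and at most at 1.92 CPM in every library of set 2. Its difference of 1.92 ± 0.50 became 1.5 without the replicate block (adjusted p = 0.858) and 2.88 without CP_18 replicate 1. It was no longer called without CP_17 replicate 1 (1.97, adjusted p = 0.07), CP_18 replicate 2 (1.62, adjusted p = 0.0616), OSVZ_17ext replicate 1 (1.65, adjusted p = 0.0503) or OSVZ_18 replicate 2 (1.77, adjusted p = 0.0503), nor on the summed counts (1.73, adjusted p = 0.0515).

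Of the 15 lower arms in the plot, 5 lost their call when single libraries were left out, among them miR-873-3p and miR-199b-5p, which are described below. The difference of miR-346-5p, -2.33 ± 0.67, was not called without any 1 of 6 libraries, with the highest adjusted p, 0.323, without OSVZ_18 replicate 2 (-1.76). That of miR-383-5p, -2.26 ± 0.63, was not called without any 1 of 7 libraries, with the highest adjusted p, 0.199, without OSVZ_18 replicate 2 (-2.11). For miR-323b-3p, at -4.02 ± 1.16, this held for 8 libraries, up to an adjusted p of 0.205 without OSVZ_18 replicate 2 (-3.79). With library totals miR-346-5p (-2.05, adjusted p = 0.122), miR-383-5p (-2.01, adjusted p = 0.101) and miR-323b-3p (-3.77, adjusted p = 0.0685) were not called.

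Of the 14 names of the neuronal list, 13 had values under that name in both sets, and miR-128 did not. Of the list's tested arms, 10 of 25 were lower in the OSVZ and none was higher (background 4.21% lower), with 8 lower under library totals. The median difference was -1.97, against -0.20 over all arms, and 22 of the 25 values were below 0. Its summed level was 2928 to 6139 CPM in the OSVZ and 16815 to 25080 CPM in the CP. Of this, miR-139-5p alone held 969 to 3460 CPM and 7181 to 15290 CPM. The defining neuronal arm miR-124-3p was close to 0 in both layers, at 0 to 2.42 CPM in the OSVZ and 0 to 2.99 CPM in the CP. The handling of reads with several matches is not given, and whether this level is true to the tissue was not tested. The neuronal arms that were abundant in the CP are described next.

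The arm miR-138-5p, known to restrain dendritic spine growth, ran from 174 CPM over a median of 374 to 480 CPM in the OSVZ, against 3352 and 1952 CPM in CP_17 and 6042 and 4790 CPM in CP_18. All CP libraries stood well above the OSVZ, those of area 18 furthest, with a difference of -3.42 ± 0.36 (adjusted p = 1.34e-08). For miR-137-3p, a regulator of neuronal differentiation, the OSVZ held 1.18 to 69.6 CPM with a median of 43.5, and the CP 510 and 438 CPM in area 17 and 1343 and 962 CPM in area 18. Again no library overlapped, and area 18 was the higher of the CP areas in both sets. The difference was -4.27 ± 0.56 (adjusted p = 1.09e-06), and it was -5.13 without OSVZ_17int replicate 1. Both arms of miR-132, which CREB induces in active neurons and which promotes dendrite growth, were lower. The 5p arm stood at 20.5 to 45.9 CPM in the OSVZ and 168 to 364 CPM in the CP, a difference of -2.76 ± 0.48 (adjusted p = 0.000117). The 3p arm stood at 79.9 to 267 CPM and 356 to 767 CPM, a difference of -1.70 ± 0.38 (adjusted p = 0.0026), which was -1.63 without OSVZ_18 replicate 2 (adjusted p = 0.0612). The neighbouring miR-212-3p was at 0.405 to 21.0 CPM in the OSVZ and 33.8 to 78.4 CPM in the CP, and its difference of -2.36 ± 0.82 did not pass (adjusted p = 0.0893).

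Further neuronal arms were lower in the OSVZ. The arm miR-139-5p, encoded in an intron of the phosphodiesterase gene PDE2A, ran from 969 over 1950 to 3460 CPM in the OSVZ, against 15290 and 8582 CPM in CP_17 and 9828 and 7181 CPM in CP_18, a difference of -2.25 ± 0.34 (adjusted p = 1.43e-05). For miR-218-5p, encoded in introns of the SLIT genes, the OSVZ held 123 to 606 CPM and the CP 1053 to 2069 CPM, a difference of -2.24 ± 0.34 (adjusted p = 2.07e-05). For miR-129-3p the OSVZ held 233 to 479 CPM and the CP 1022 to 2849 CPM, a difference of -2.32 ± 0.34 (adjusted p = 1.25e-05). None of these overlapped between the layers. The 3p arm of miR-7 was lower by -1.89 ± 0.34 (298 to 465 CPM against 1050 to 1602 CPM, adjusted p = 0.000188), while the 5p arm, the one known to bind the circular RNA Cdr1as, had 270 to 893 CPM against 631 to 852 CPM and a difference of -0.37 ± 0.38 (adjusted p = 0.755). The difference between its arms, as the 3p to 5p log2 ratio, was -1.42 ± 0.63 and did not pass (limma, adjusted p = 0.245). Of the list's other members, miR-153-3p showed -0.06 ± 0.47.

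Outside the neuronal list, miR-204-5p had one of the largest differences. It ran from 146 CPM over a median of 641 to 928 CPM in the OSVZ, against 7238 and 7022 CPM in CP_17 and 4895 and 6400 CPM in CP_18, which left a wide gap between the layers. The difference was -3.46 ± 0.41 (adjusted p = 1.65e-07). This arm is known from choroid plexus and pigment epithelium, and the other 5p arm of that marker list, miR-211-5p, which shares its seed, held 14.3 to 28.9 CPM in the OSVZ and 14.2 to 51.4 CPM in the CP (difference -0.08 ± 0.63). The part of such cells in the result was not tested. In region means the level of miR-204-5p was 211 CPM in the inner and 641 CPM in the outer OSVZ of area 17 and 927 CPM in the OSVZ of area 18, each over 2 libraries and not tested between these regions.

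Both arms of miR-338, encoded in an intron of the kinase gene AATK, were lower in the OSVZ. The 5p arm stood at 8.7 to 46.6 CPM in the OSVZ, with a median of 27.5, and at 148 to 210 CPM in the CP (difference -2.72 ± 0.50, adjusted p = 0.000285). The 3p arm stood at 25.8 to 99.5 CPM and 168 to 603 CPM (difference -2.65 ± 0.51, adjusted p = 0.000458). As miR-338 also promotes oligodendrocyte differentiation, it was listed as a marker of that lineage with miR-219, whose arms lay on the other side. The arm miR-219-3p held 19.3 to 75.3 CPM in the OSVZ and 2.88 to 19.5 CPM in the CP, a difference of 1.80 ± 0.68 that did not pass (adjusted p = 0.127).

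A pair of neighbouring microRNAs, miR-873 and miR-876, had 3p arms near 0 in the OSVZ. The arm miR-876-3p stood at 0 to 6.61 CPM in the OSVZ, with a median of 2.04, and at 86.3, 70.5, 70 and 64.3 CPM in the CP. The CP libraries were close together, and the OSVZ libraries were all below them. The difference was -5.06 ± 1.0 (adjusted p = 0.000607), and it was -5.87 without OSVZ_17ext replicate 1, -6.11 without OSVZ_17int replicate 1 and -5.98 without OSVZ_18 replicate 2. The arm miR-873-3p stood at 0 to 2.91 CPM in the OSVZ and 15.5 to 40 CPM in the CP, a difference of -5.93 ± 1.52 (adjusted p = 0.0103). That call ended without OSVZ_18 replicate 2 (-5.29, adjusted p = 0.139) and without the replicate block (-5.89, adjusted p = 0.0598), and the difference was -7.73 without OSVZ_17ext replicate 2 and -7.49 without OSVZ_18 replicate 1. At such low levels the fitted size depends on the prior count and is no bound.

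Several less studied arms were also lower in the OSVZ without overlap between the layers. For miR-598-3p the OSVZ held 75.3 to 118 CPM, with a median of 103, and the CP held 438 and 920 CPM in area 17 and 1085 and 1055 CPM in area 18, a difference of -3.04 ± 0.39 (adjusted p = 1e-06). The arm miR-628-5p stood at 9.91 to 49.9 CPM in the OSVZ and 176 to 309 CPM in the CP, a difference of -2.80 ± 0.50 (adjusted p = 0.000165). The arm miR-935-3p, encoded next to the AMPA receptor regulator CACNG8, stood at 123 to 509 CPM and 663 to 1663 CPM, a difference of -2.22 ± 0.38 (adjusted p = 8.13e-05). For miR-326-3p, encoded in an intron of ARRB1, the values were 98.3 to 211 CPM and 555 to 678 CPM, a difference of -2.07 ± 0.38 (adjusted p = 0.00027). These 4 arms kept their call under all 21 alternatives.

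Of the 14q32 imprinted cluster, a large array of microRNAs expressed from the maternal chromosome in brain, 6 of 82 tested arms were lower and none was higher (background 4.21% lower). With library totals 4 were lower. The median of its arms was -0.92 and 62 of the 82 were below 0. Called with all alternatives were miR-376c-3p and miR-487b-3p. The first held 70.6 to 154 CPM in the OSVZ and 130, 399, 529 and 932 CPM in the CP, so that only CP_17 replicate 1 lay inside the OSVZ range (difference -1.92 ± 0.40, adjusted p = 0.00126). The second held 77.1 to 148 CPM in the OSVZ and 284 to 677 CPM in the CP, without overlap (difference -1.88 ± 0.39, adjusted p = 0.00132).

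Of the let-7 family, which restrains proliferation and increases as neurons mature, 3 of 18 tested arms were lower and 1 was higher (background 4.21% lower, 2.11% higher). The family's median was -0.09 and so close to that of all arms. This median counts each arm alike, and the summed level of the family did differ. It was 9082 to 16676 CPM in the OSVZ and 18378 to 41174 CPM in the CP, without overlap. The differences of the lower ones were -1.79 ± 0.40 for let-7f-5p, -1.67 ± 0.39 for let-7g-5p and -1.85 ± 0.44 for let-7i-5p. The arm let-7g-5p held 2449 to 4805 CPM in the OSVZ and 6995 to 12314 CPM in the CP, without overlap. Against these, let-7b-5p was at 0.61 ± 0.35 (adjusted p = 0.431), and let-7c-5p, at 22.7 to 113 CPM in the OSVZ and 6.91 to 24.1 CPM in the CP, was the higher one at 1.87 ± 0.59 (adjusted p = 0.0467). Members of this family differ by few bases and may share reads, since how reads with several matches were counted is not given in the sources used here. Without the replicate block none of the 4 was called (adjusted p from 0.0564 to 0.213). Without OSVZ_18 replicate 2, let-7f-5p (-1.52, adjusted p = 0.126), let-7g-5p (-1.5, adjusted p = 0.123) and let-7c-5p (2.03, adjusted p = 0.0818) were not called, and without CP_17 replicate 1, let-7f-5p (-1.54, adjusted p = 0.0517), let-7g-5p (-1.39, adjusted p = 0.083) and let-7i-5p (-1.46, adjusted p = 0.0592). Other single libraries that ended a call were CP_18 replicate 2 for let-7g-5p (-1.34, adjusted p = 0.0616) and let-7c-5p (1.77, adjusted p = 0.202), and OSVZ_18 replicate 1 for let-7i-5p (-1.48, adjusted p = 0.121) and let-7c-5p (1.84, adjusted p = 0.187). For let-7c-5p they were also CP_17 replicate 2 (1.49, adjusted p = 0.396), CP_18 replicate 1 (1.96, adjusted p = 0.126), OSVZ_17ext replicate 2 (1.78, adjusted p = 0.102) and OSVZ_17int replicate 2 (1.65, adjusted p = 0.0934), and its difference was 2.53 without CP_17 replicate 1.

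In the progenitor list, 2 of 22 tested arms were higher, both of miR-92b, and 2 were lower, both of miR-135b (background 2.11% higher, 4.21% lower), while the median was 0.08. With library totals 4 of the list were higher and 1 was lower. The arm miR-135b-5p ran from 660 over 1121 to 3346 CPM in the OSVZ and held 3101, 3457, 5087 and 5596 CPM in the CP. It was lower by -1.70 ± 0.37 (adjusted p = 0.00237) with 1 OSVZ library inside the CP range. The call of miR-135b-3p was lost without any 1 of CP_17 replicate 1 (-2.13, adjusted p = 0.0758), CP_17 replicate 2 (-1.94, adjusted p = 0.147), CP_18 replicate 1 (-1.57, adjusted p = 0.311), OSVZ_17int replicate 1 (-1.90, adjusted p = 0.0691) and OSVZ_18 replicate 2 (-1.61, adjusted p = 0.308), and with library totals (-1.92, adjusted p = 0.0867). The neural arm miR-9-5p overlapped widely, at 8551 to 63791 CPM in the OSVZ and 26551 to 118734 CPM in the CP (difference -0.60 ± 0.48, adjusted p = 0.662). Of the 13 names listed for the miR-17 clusters, which drive progenitor proliferation, 10 had values in both sets, without miR-18a, miR-20a and miR-92a. Of their tested arms, 0 of 20 passed in edgeR (background 2.11% higher, 4.21% lower), although 15 were above 0 and the median was 0.53. The nearest was miR-20b-5p, where all OSVZ libraries (184 to 535 CPM) lay above all CP libraries (74.8 to 177 CPM) and the difference was 1.26 ± 0.40 (adjusted p = 0.0526). With size factors, and with library totals, 2 arms of these clusters were called higher.

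Of the miR-29 family, which represses collagens and DNA methyltransferases and increases as the brain matures, miR-29a-3p was higher in the OSVZ. It ran from 241 over 292 to 336 CPM there and stood at 57.1, 58.3, 59.3 and 113 CPM in the CP. The groups did not overlap, and the difference was 2.09 ± 0.40 (adjusted p = 0.000388). Of its relatives, miR-29b-3p was at 2.24 ± 0.83 with 6.65 to 47.4 CPM in the OSVZ (adjusted p = 0.118), and miR-29c-3p at -1.59 ± 0.98. Of the miR-181 family 2 of 8 tested arms were lower (background 4.21% lower), both of miR-181c. The arm miR-181c-5p held 365 to 1351 CPM in the OSVZ and 2275 to 3898 CPM in the CP (difference -1.81 ± 0.40, adjusted p = 0.00227), and the values of its close relatives were -0.69 ± 0.40 for miR-181d-5p and -1.09 ± 0.40 for miR-181a-5p. With size factors and with library totals 1 arm of this family was lower. The difference of miR-181c-3p, -1.20 ± 0.35, lost its call in 15 of 21 alternatives. Among these were 9 single libraries left out, of which OSVZ_18 replicate 2 gave -0.87 (adjusted p = 0.429) and CP_17 replicate 2 -0.98 (adjusted p = 0.266). Also tested were the miR-15/16 family (12 arms), the miR-125 and miR-99/100 families (10), the miR-30 family (10) and the miR-26 family (4). In the edgeR fit used above, with TMM, none of their arms was called. With size factors 1 arm was higher in each of the first 3 of these families, and with library totals 2, 1 and 1. None of the miR-26 family was called with either. The arm miR-125a-5p averaged 46533 CPM in the OSVZ and 97236 CPM in the CP, a difference of -1.03 ± 0.36 (edgeR, adjusted p = 0.0919). With TMM it was called lower among arms of at least 10 CPM (-0.95, adjusted p = 0.0104). It was also called lower in the 10 OSVZ and CP libraries alone (-0.87, adjusted p = 0.0225). No arm of its family was called lower with size factors or library totals.

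**Figure D3:**
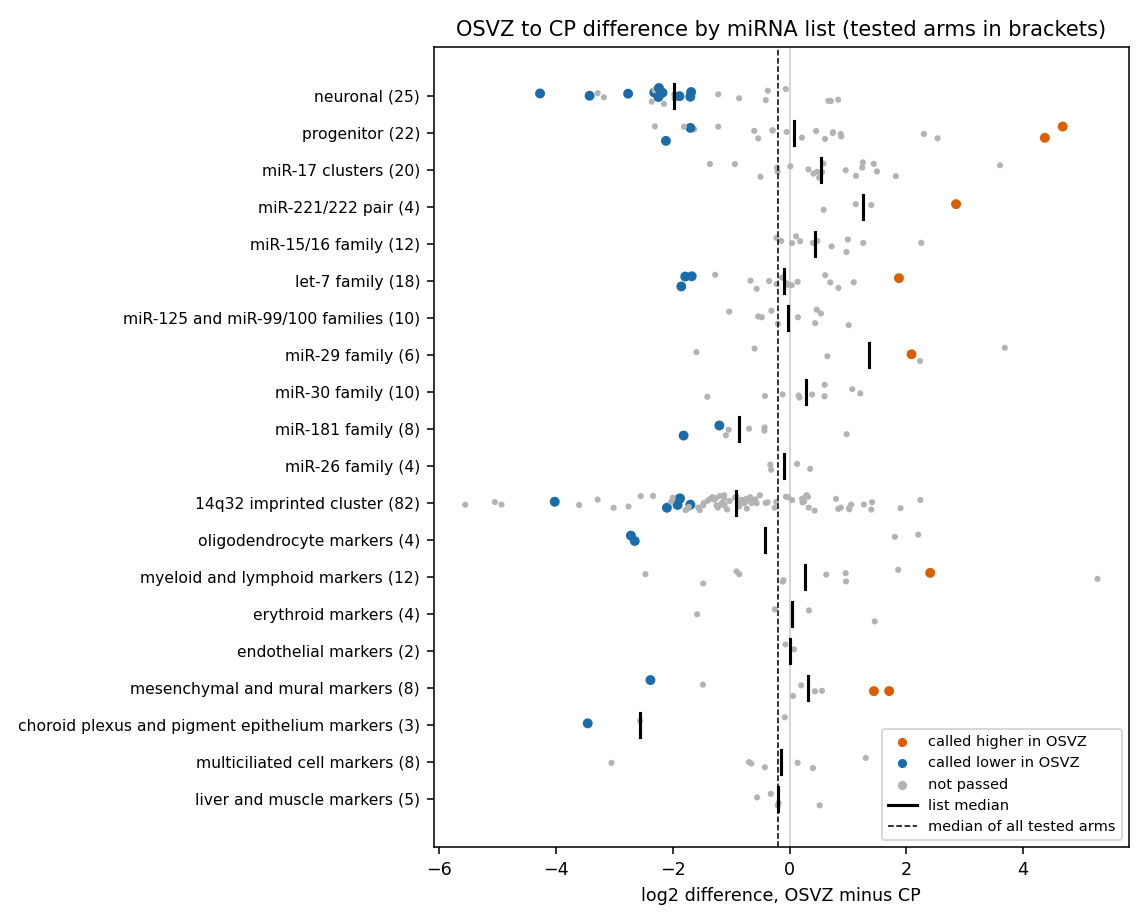
Each row is 1 list of arms, with the number of tested arms in brackets, and each point is the log2 difference of an arm, OSVZ minus CP, orange where called higher, blue where called lower and grey where not passed. Black bars are list medians and the dashed line is the median of all tested arms at -0.20, so that the neuronal median at -1.97 lies to its left and the miR-29 median at 1.37 to its right.

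Markers of cells other than neurons and their progenitors were read in the same fit. Of the mesenchymal and mural list 2 of 8 tested arms were higher and 1 was lower (background 2.11% higher, 4.21% lower), and with library totals none was lower. Its summed level was 1418 to 4937 CPM in the OSVZ against 733 to 1175 CPM in the CP. The higher arms were miR-145-5p and miR-214-3p. The arm miR-145-5p, of smooth muscle and pericytes, held 1017 to 4610 CPM in the OSVZ and 487 to 872 CPM in the CP without overlap (difference 1.44 ± 0.37, adjusted p = 0.0109), with its cluster partner miR-143-3p at 0.44 ± 0.47. The lower arm was miR-199b-5p, at 8.08 to 25.9 CPM in the OSVZ and 57.3 to 91.5 CPM in the CP without overlap (difference -2.38 ± 0.66, adjusted p = 0.018). The endothelial miR-126-3p held 1011 to 3933 CPM in the OSVZ and 1063 to 3440 CPM in the CP (difference -0.07 ± 0.33). No arm of any list was at 0 in all 10 libraries, and the part of these cells in the higher arms was not tested. The calls of miR-145-5p and miR-214-3p (1.71 ± 0.42) were lost without OSVZ_18 replicate 1 (1.33, adjusted p = 0.0748, and 1.49, adjusted p = 0.0833). That of miR-145-5p was also lost without CP_17 replicate 2 (1.28, adjusted p = 0.11) or CP_18 replicate 2 (1.33, adjusted p = 0.0829), without the replicate block (1.44, adjusted p = 0.0614) and on counts summed per set and zone (1.54, adjusted p = 0.0628). That of miR-214-3p was lost on the summed counts (1.66, adjusted p = 0.058) and without CP_17 replicate 1 (1.71, adjusted p = 0.0789) or CP_18 replicate 1 (1.68, adjusted p = 0.0564). That of miR-199b-5p was lost with library totals (-2.17, adjusted p = 0.075) and without OSVZ_18 replicate 1 (-2.27, adjusted p = 0.187), OSVZ_18 replicate 2 (-2.40, adjusted p = 0.152), CP_17 replicate 1 (-2.32, adjusted p = 0.11), CP_17 replicate 2 (-2.35, adjusted p = 0.0855), CP_18 replicate 1 (-2.40, adjusted p = 0.0772) or CP_18 replicate 2 (-2.36, adjusted p = 0.0616).

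In the myeloid and lymphoid list, miR-155-5p, induced in activated immune cells, was higher in the OSVZ and 11 other arms were not called (background 2.11% higher, 4.21% lower). With size factors, and with library totals, 2 arms of the list were higher. The arm miR-155-5p ran from 47.8 over 131 to 256 CPM in the OSVZ and stood at 25.1, 17.9, 25 and 28.6 CPM in the CP. The layers did not overlap, and the difference was 2.41 ± 0.50 (adjusted p = 0.00129). Beside it, miR-146a-5p held 36.6 to 149 CPM and 3.69 to 31.2 CPM (difference 1.86 ± 0.60, adjusted p = 0.0579). The defining leukocyte arm miR-142-3p was at 0 in all 4 CP libraries and at most at 3.64 CPM in the OSVZ. The list's summed level went the other way, 8413 to 18586 CPM in the OSVZ and 16071 to 35390 CPM in the CP, most of it miR-342-3p (7204 to 17152 CPM and 15371 to 34615 CPM). The part of immune cells in the level of miR-155-5p was not tested.

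The comparison was also made within each area. In area 17, OSVZ_17int and OSVZ_17ext together against CP_17 gave 41 called arms (3.6% of those tested), 13 higher (1.14%) and 28 lower (2.46%). In area 18, OSVZ_18 against CP_18 gave 22 (1.93%), 10 higher (0.878%) and 12 lower (1.05%). The areas share no library, and 16 arms were called in both, all with the same direction, which is 39.0% of the area 17 calls and 72.7% of the area 18 calls. The 8 higher ones were both arms of miR-92b, both arms of miR-574, miR-887-3p, miR-222-3p, miR-423-5p and miR-193a-5p. The 8 lower ones were miR-7-3p, miR-129-3p, miR-132-5p, miR-137-3p, miR-138-5p, miR-204-5p, miR-218-5p and miR-598-3p. For example, miR-92b-3p differed by 4.15 ± 0.56 in area 17 and 5.21 ± 0.61 in area 18, and miR-138-5p by -3.09 ± 0.42 and -3.76 ± 0.56. Some of the 16 lost an area call under other settings. Without the replicate block miR-574-5p was called in neither area (edgeR, adjusted p = 0.108 in area 17 and 0.0749 in area 18). In area 18 the same held for miR-132-5p (adjusted p = 0.0749) and miR-137-3p (adjusted p = 0.107). The area 18 difference of miR-574-5p, 4.48, was 8.29 without CP_18 replicate 1 and 3.30 without CP_18 replicate 2. The median SE was 0.546 in area 17 and 0.621 in area 18 over the 72 arms. The area 17 calls were 14 without CP_17 replicate 1 or CP_17 replicate 2, 24 without OSVZ_17ext replicate 1 or OSVZ_17ext replicate 2, and 22 without OSVZ_17int replicate 1. The area 18 calls were 13 without CP_18 replicate 1, 9 without CP_18 replicate 2, and 8 without OSVZ_18 replicate 1 or OSVZ_18 replicate 2.

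A test of the difference between the areas called no arm in edgeR, and none in DESeq2, with 34 arms at an unadjusted p under 0.05 in edgeR. Among the 72 arms its smallest adjusted p was 1. All 72 had the same sign in both areas. Their selection favours this, since the difference over both areas is the mean of the 2 area differences. The arm nearest to a call was miR-205-5p, an epithelial microRNA, at 80.7 to 166 CPM in the OSVZ of set 1, 1.63 to 8.88 CPM in the OSVZ of set 2, 18.6 and 0 CPM in CP_17 and 89.7 and 25.8 CPM in CP_18. It differed by 3.59 ± 1.06 in area 17 (adjusted p = 0.0476) and by -2.44 ± 1.09 in area 18, and the difference between the areas was 6.03 ± 1.53 (adjusted p = 0.422). This last value was 10.51 without CP_17 replicate 1 (adjusted p = 0.0301) and 7.30 without CP_18 replicate 1 (adjusted p = 0.0428). The area 17 value alone was 8.52 without CP_17 replicate 1, and it was not called without CP_17 replicate 2 (2.71, adjusted p = 0.608) or OSVZ_17int replicate 1 (2.67, adjusted p = 0.372). It was also not called without OSVZ_17ext replicate 1 (3.80, adjusted p = 0.0658), OSVZ_17ext replicate 2 (3.44, adjusted p = 0.0727), OSVZ_17int replicate 2 (3.75, adjusted p = 0.0511), OSVZ_18 replicate 1 (3.56, adjusted p = 0.0579) or OSVZ_18 replicate 2 (3.47, adjusted p = 0.0533). The same held without the replicate block (3.11, adjusted p = 0.742), with size factors (3.66, adjusted p = 0.0605), with library totals (3.78, adjusted p = 0.0946) and among arms of at least 10 CPM (3.59, adjusted p = 0.0538).

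**Figure D4:**
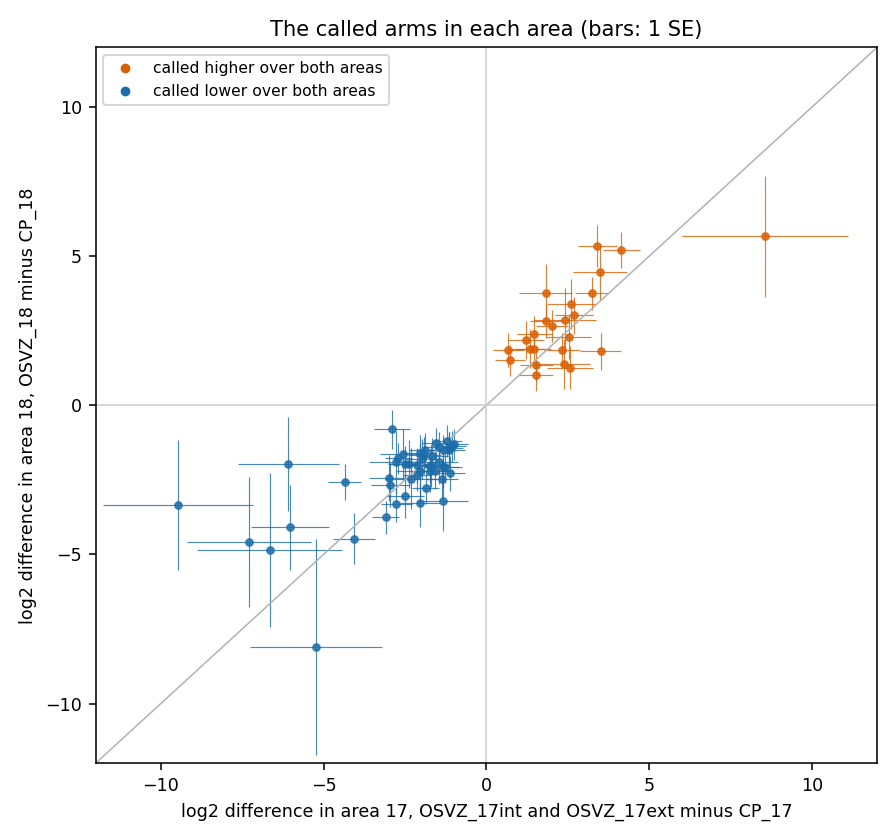
The 72 arms called over both areas are drawn by their log2 difference in area 17 (horizontal axis) and in area 18 (vertical axis), with bars of 1 SE, orange for the 24 higher and blue for the 48 lower arms. All points lie in the lower left or upper right quadrant around the grey line of equality.

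Within hairpins, 62 names had a called arm and 53 of them had both arms tested. Both arms were called in 10, always in the same direction. The 3 higher ones were miR-92b, miR-574 and miR-423, and the 7 lower ones miR-129, miR-132, miR-135b, miR-138, miR-181c, miR-338 and miR-383. Whichever library was left out, both arms stayed called in 3 of these, miR-92b, miR-574 and miR-338. In the other 7 an arm lost its call without some library, such as miR-129-5p without CP_17 replicate 1 (adjusted p = 0.439), miR-138-3p without OSVZ_18 replicate 2 (adjusted p = 0.115) and miR-383-5p without CP_18 replicate 1 (adjusted p = 0.126). In the remaining 43 of the 53 names only 1 arm was called, and the second arm had the same sign in 32 and the opposite sign in 11. None of these second arms passed, so their sign is uncertain. Several of the opposite ones lay near 0, such as miR-598-5p (mean 0.534 CPM, 1.82 ± 1.80) and miR-487b-5p (1.15 CPM, 1.27 ± 1.59). An abundant one was miR-340-5p (344 CPM, 0.32 ± 0.48).

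The balance of 3p to 5p within a name, as the log2 ratio of the arms (each CPM plus 1), was tested in 232 names with limma, and 3 were called (1.29%). Where a name covers several hairpins, a shift between these hairpins and a shift between arms cannot be told apart. In miR-125b the 3p arm gained on the 5p arm in the OSVZ by 1.54 ± 0.29 (adjusted p = 0.00791). Its 3p arm held 934 ± 249 CPM (SD, n = 6) in the OSVZ and 472 ± 71.0 CPM (SD, n = 4) in the CP, while its 5p arm held 386338 ± 156521 CPM and 542864 ± 207923 CPM. The log2 ratio lay between -9.22 and -7.96 in the OSVZ and between -10.79 and -9.77 in the CP, without overlap. The call was lost without OSVZ_18 replicate 2 (1.44, adjusted p = 0.124) or CP_18 replicate 2 (1.52, adjusted p = 0.0529). The others, miR-887 (3.20 ± 0.62) and miR-598 (-3.51 ± 0.72), have a 5p arm of at most 5.43 CPM in any library, so their ratio follows the 3p arms described above. They too were not called without OSVZ_18 replicate 2 (2.88, adjusted p = 0.124, and -2.66, adjusted p = 0.169) or CP_18 replicate 2 (2.95, adjusted p = 0.0677, and -3.65, adjusted p = 0.0529), nor miR-887 without CP_17 replicate 1 (2.98, adjusted p = 0.0583), nor miR-598 without CP_17 replicate 2 (-3.08, adjusted p = 0.135) or CP_18 replicate 1 (-3.38, adjusted p = 0.0591).

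Summed over all arms, 5p arms held 76.4% ± 9.76 of the counts in the OSVZ (SD, n = 6) and 87.4% ± 1.83 in the CP (SD, n = 4). The difference of -10.95 percentage points had an exact two-sided permutation p of 0.01 within sets, the smallest the 100 permutations can give. Set 1 held 62.9% to 76.5% in the OSVZ and 84.7% and 88.8% in the CP, and set 2 held 83.6% to 85.0% and 87.6% and 88.4%. In the OSVZ of set 1, miR-130b-3p alone held 10.1% to 25.5% of the counts, and in set 2 at most 0.429%. Without both arms of miR-130b the difference was -4.50 points (exact permutation p = 0.01). The p was above 0.05 without OSVZ_17ext replicate 1 (-8.25 points, exact permutation p = 0.0667), OSVZ_17int replicate 1 (-8.90, p = 0.0667), OSVZ_18 replicate 1 (-10.98, p = 0.0833), CP_17 replicate 2 (-10.88, p = 0.125) or CP_18 replicate 2 (-10.62, p = 0.125).

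**Figure D5:**
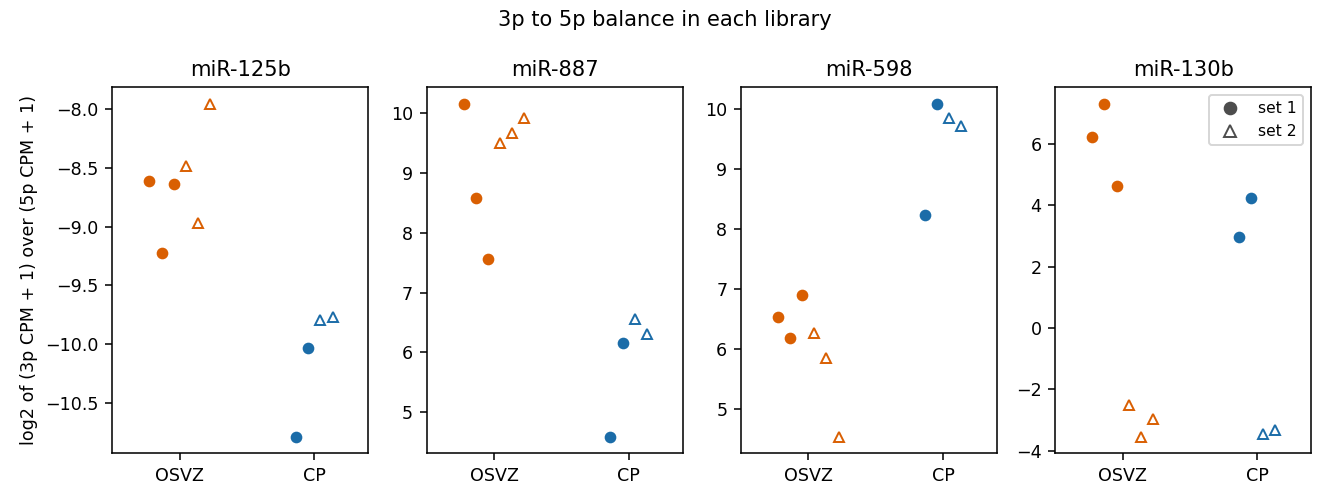
The log2 ratio of 3p to 5p (each CPM plus 1) is drawn for 4 names in each OSVZ (orange) and CP (blue) library, with set 1 as filled circles and set 2 as open triangles. In miR-125b the OSVZ lies between -9.22 and -7.96 and the CP between -10.79 and -9.77, while in miR-130b the libraries part by set.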

How the data were processed

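The deposited values are counts of reads for each arm of each miRNA name, with the arms of a library in separate columns, in tables that list only names with at least 10 counts. A Qiagen kit with DTT was used for RNA, and SOLiD libraries were size-selected, per the labels' protocols. Not given in the sources used here are the aligner, genome build, annotation and handling of reads with several matches. Columns were assigned to sets by how each table spells its regions. The third set is not analysed here, and 12 value columns (6 libraries) whose names match no label were left out. Counts are of PCR-amplified reads without molecular identifiers.

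Of 828 names (1656 arms) in both tables, 1139 arms passed filterByExpr, holding 99.99% of the counts. R 4.3.3 with edgeR 4.0.16 was used for the quasi-likelihood test, with TMM scaling, 7 region means and the set as a block. It ran over all 14 mapped libraries (6 residual degrees of freedom, 28.1 prior). Of these, 4 are from the ventricular zone and enter the filter, the scaling, the set block and the estimate of the spread. With the 10 OSVZ and CP libraries alone, the difference of miR-221-3p was 1.29 in place of 1.13, and that of miR-125a-5p -0.87 in place of -1.03. Both arms were called there (edgeR, adjusted p = 0.000401 and 0.0225), but not over the 14 libraries (0.0735 and 0.0919). Both areas weighed equally in each layer, as did the sublayers within the OSVZ of area 17. P-values were adjusted over all arms by Benjamini-Hochberg. The planned fit of 20 libraries and 3 sets was applied to the mapped ones. The 3p to 5p balance was tested with limma 3.58.1 on names with an arm of at least 10 CPM, and a share of counts by exact permutation. DESeq2 1.42.0 was an alternative. The fits were also run on simulated data, and the outcome is not given here.

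The sets have their own embryonic day in the labels. Deviations of same-set libraries from their region means correlated in all 10 pairs of OSVZ and CP regions (median r 0.651, from 0.583 to 0.722, across arms). For the 358 arms of at least 10 CPM the biological coefficient of variation had a median of 58.3%.

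Named arms are the 15 largest called differences per direction averaging at least 10 CPM and of like sign in each set, up to 6 called members per list, their other arms, the 10 most abundant arms, and up to 5 per direction in each area. Other arms were picked with their values in view. The members, lists and rules were chosen with earlier results of these data known.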

Additional observations from a re-analysis of the deposited data

Results flagged for a closer look

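In 5 groups of libraries of 1 arm, 1 library stood far from the others of its layer. Among 118 groups looked at, chance flags about 1 in 20 groups. The arm miR-137-3p was at 1.18 CPM in OSVZ_17int replicate 2 and at 24.7 to 69.6 CPM in the other OSVZ libraries. The arm miR-455-3p was at 152 CPM in OSVZ_17int replicate 1 and at 429 to 587 CPM in the others. For miR-214-3p, OSVZ_18 replicate 1 held 340 CPM and the others 146 to 179 CPM. In the CP, CP_17 replicate 1 held 17425 CPM of miR-221-3p against 6596 to 7620 CPM, and CP_18 replicate 2 held 113 CPM of miR-29a-3p against 57.1 to 59.3 CPM. The cause was not tested.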

How the results depend on the processing

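Under other settings the 72 arms called between OSVZ and CP became 120 (DESeq2, 54 higher), 43 (counts summed per set and zone, 15 higher and 28 lower), 123 (only the 10 OSVZ and CP libraries, 54 higher, with all 72 among them) and 125 (without 2 ventricular zone libraries that stood apart, 57 higher). The higher arms numbered 39 with zones pooled over areas, 39 among arms of at least 10 CPM and 38 with library totals. Leaving out 1 library gave 44 to 71 calls, 16 to 27 higher and 22 to 46 lower. The low ends without OSVZ_18 replicate 2 (44 in all, 22 lower) and CP_17 replicate 1 (44, 26 lower), and 31 lower without OSVZ_18 replicate 1, come with fewer samples. Without the replicate block 49 arms were called over both areas, 20 in area 17 and 6 in area 18. For area 17, DESeq2 gave 76 and the 10 libraries alone 70, and leaving out 1 library 14 to 43. For area 18, DESeq2 gave 56, arms of at least 10 CPM 43 and the 10 libraries alone 49, and leaving out 1 library 8 to 24. A region left with 1 library was taken to vary like the others. The test between areas called 1 arm with the 10 libraries alone and 0 to 1 when 1 library was left out. The 3p to 5p balance was called in 8 names with the 10 libraries alone, 17 with a pseudocount of 5 CPM and 0 to 4 without 1 library. The 5p share differed by -12.67 to -8.25 points without 1 library, and its exact permutation p without the replicate block was 0.0429. The cause of these shifts was not tested. No direction of a called arm was reversed. Among the 358 arms of at least 10 CPM the median SE was 0.492 and the median biological coefficient of variation 58.3%, against 1.34 and 114% when every tested arm is taken. The part of depth in this was not tested.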

Other observations

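Some called arms lay under 10 CPM on average and were not described above. The arm miR-31-3p was at 0 to 21.2 CPM in the OSVZ and at 0 in 3 of 4 CP libraries, with 1.77 CPM in the fourth (fitted difference 7.10 ± 1.64, adjusted p = 0.00378 in edgeR), and without OSVZ_17int replicate 1 its adjusted p was 1. The 3 lower arms of this kind were miR-1284-3p, miR-383-3p and miR-491-3p, at means of 2.22, 10.96 and 4.94 CPM in the CP and 0.0221, 0.323 and 1.5 CPM in the OSVZ. Their calls were lost in 14 of 19 alternatives for miR-1284-3p, in 5 of 20 for miR-383-3p and in 15 of 20 for miR-491-3p, whose adjusted p was 1 without CP_18 replicate 1.

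The arm miR-767-5p, of a pair on the X chromosome, was lower in the OSVZ by -1.95 ± 0.47 (adjusted p = 0.00569 in edgeR), with 48.7 CPM on average in the OSVZ and 174 CPM in the CP. Its neighbour miR-105-5p was at -1.48 ± 0.57 (adjusted p = 0.136). The call of miR-767-5p was lost without CP_17 replicate 1 (-1.71, adjusted p = 0.1), OSVZ_18 replicate 1 (-1.95, adjusted p = 0.0694) or OSVZ_18 replicate 2 (-1.84, adjusted p = 0.102).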
